A study of Drosophila melanogaster with 2 samples.

Results

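The homeobox genes outside the Hox clusters were examined as 50 named members of the 13945 protein-coding genes annotated on the main chromosome arms, chosen by gene family and role and not by a measured value. Binding of MTF-1 was mapped by chromatin immunoprecipitation and sequencing (ChIP-seq) in whole Drosophila melanogaster embryos, 0 to 24 h old and of both sexes, from a fly line that stably carries MTF-1 with GFP fused to its C terminus. Both samples, biological replicates 2 and 4, come from that line and form the only group. The labels name neither an untagged group nor a metal treatment, and their free text calls both samples input controls although the titles and the antibody label describe an immunoprecipitated factor. Embryos of all these ages were pooled as whole organisms, so strong binding in a few cells and weak binding in many cannot be told apart.

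A homeobox encodes the homeodomain, a DNA-binding fold, and its carriers are transcription factors that set positional and cell identity: axis and segment genes in the early embryo, then genes of the nerve cord, muscle, heart, eye and glia. Many of them are expressed in small groups of cells, lie in long non-coding stretches that hold their enhancers, and are kept silent elsewhere by Polycomb repression. MTF-1 is a zinc-finger factor that responds to metal load and binds metal response elements, of which the metallothionein genes carry the best known.

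Few of the homeobox genes had a thresholded MTF-1-GFP peak at their start. A thresholded peak, one kept by the authors' test of reproducible rank, had its summit within 1 kb of a transcript start in 5 of the 50 (10%), namely bcd (FBgn0000166), cad (FBgn0000251), tin (FBgn0004110), Six4 (FBgn0027364) and so (FBgn0003460), against 17.0% of all protein-coding genes. In the gene or within 10 kb of it, 24 of the 50 (48.0%) had a peak, against 52.8% of all genes, and 6 (12.0%) had one inside the gene, against 10.9%. All of these shares lay near or below the background of all genes, and no test of the list was made.

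The depth of sequencing is unknown. Each replicate's list and the list called on the pooled reads hold 30000 regions, and the thresholded list holds 3587. Each of the 44 thresholded peaks in or within 10 kb of homeobox genes had the same rank in the thresholded and the pooled list. The pooled rank of such a peak repeats its thresholded rank and is not agreement between separate lists. Of all thresholded peaks, 144 (4.01%) had no region in replicate 2 and 24 (0.669%) had none in replicate 4. Ranks are by the authors' signal value within a list, 1 being the strongest; signal itself, whose scale is not stated, was not compared between lists. With as many of the strongest regions of each replicate as the thresholded list holds, 10 homeobox genes (20%) had a region within 1 kb of a start in replicate 2, against 16.4% of all genes, and 4 (8.0%) in replicate 4, against 16.8%. The homeobox share thus lay above the background in replicate 2 and below it in replicate 4. In the gene or within 10 kb, replicates 2 and 4 gave 22 (44.0%, all genes 51.4%) and 21 (42.0%, all genes 53.4%).

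The start peaks of bcd and tin were the strongest among the 5. bcd encodes the maternal morphogen of the anterior axis, laid down as localized mRNA. Its peak, chr3R:6759628-6759773, had its summit 224 bp upstream of the start and ranked 607 in the thresholded list, 607 in the pooled list, 328 in replicate 2 and 2074 in replicate 4. tin, which specifies the heart and dorsal mesoderm, had its peak at chr3R:21378637-21378980, 168 bp upstream, ranked 547, 547, 1238 and 410 in the same order. So the replicates put these 2 peaks in opposite order, bcd first in replicate 2 and tin first in replicate 4.

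The starts of cad and Six4 held weaker peaks. cad, a posterior patterning gene supplied by the mother and later used in the gut, had a peak 128 bp upstream at chr2L:20770431-20770774, with rank 2005 in both the thresholded and the pooled list, 2805 in replicate 2 and 3313 in replicate 4. Six4, which acts in mesoderm, had one 84 bp upstream at chr3L:20792689-20793032, with ranks 2408, 2408, 1769 and 4024. Each summit with 50 bp on either side is shown because these are homeobox gene promoters with a thresholded peak. All are plus-strand sequence of the RefSeq Release 6 assembly, and capitals mark metal response element (MRE) cores, searched as TGCACNC and TGCGCNC on both strands:
bcd: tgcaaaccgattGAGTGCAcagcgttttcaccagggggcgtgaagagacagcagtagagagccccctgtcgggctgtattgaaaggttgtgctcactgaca
tin: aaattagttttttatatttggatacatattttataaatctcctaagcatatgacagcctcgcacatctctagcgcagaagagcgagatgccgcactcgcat
cad: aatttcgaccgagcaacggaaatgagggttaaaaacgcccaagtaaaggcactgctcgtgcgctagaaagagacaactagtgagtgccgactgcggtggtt
Six4: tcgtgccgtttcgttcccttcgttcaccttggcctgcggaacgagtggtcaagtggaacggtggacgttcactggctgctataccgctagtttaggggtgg
The bcd window, chr3R:6759640-6759740, holds 1 core, which reads TGCACTC on the minus strand and is centred 35 bp from the summit. The windows of tin (chr3R:21378759-21378859), cad (chr2L:20770553-20770653) and Six4 (chr3L:20792811-20792911) hold none.

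All 5 start summits lay between genes on the upstream side of the start. The last belonged to so, sine oculis, a gene of eye and brain development, at chr2R:7419062-7419405 and 116 bp upstream. It ranked 3108 in the thresholded and pooled lists, 3110 in replicate 2 and 4207 in replicate 4. Six4 and so were thus outside the 3587 strongest regions of replicate 4, while bcd, cad and tin were inside them in both replicates. Such regions lay within 1 kb of a start in both replicates for 3 of the 50 homeobox genes (6.0%), against 11.4% of all genes. The summit of bcd, at 224 bp, was the farthest inside the 1 kb limit, and the nearest summit outside it at another homeobox gene lay 2284 bp from a start of Lim3.

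**Figure D1:**
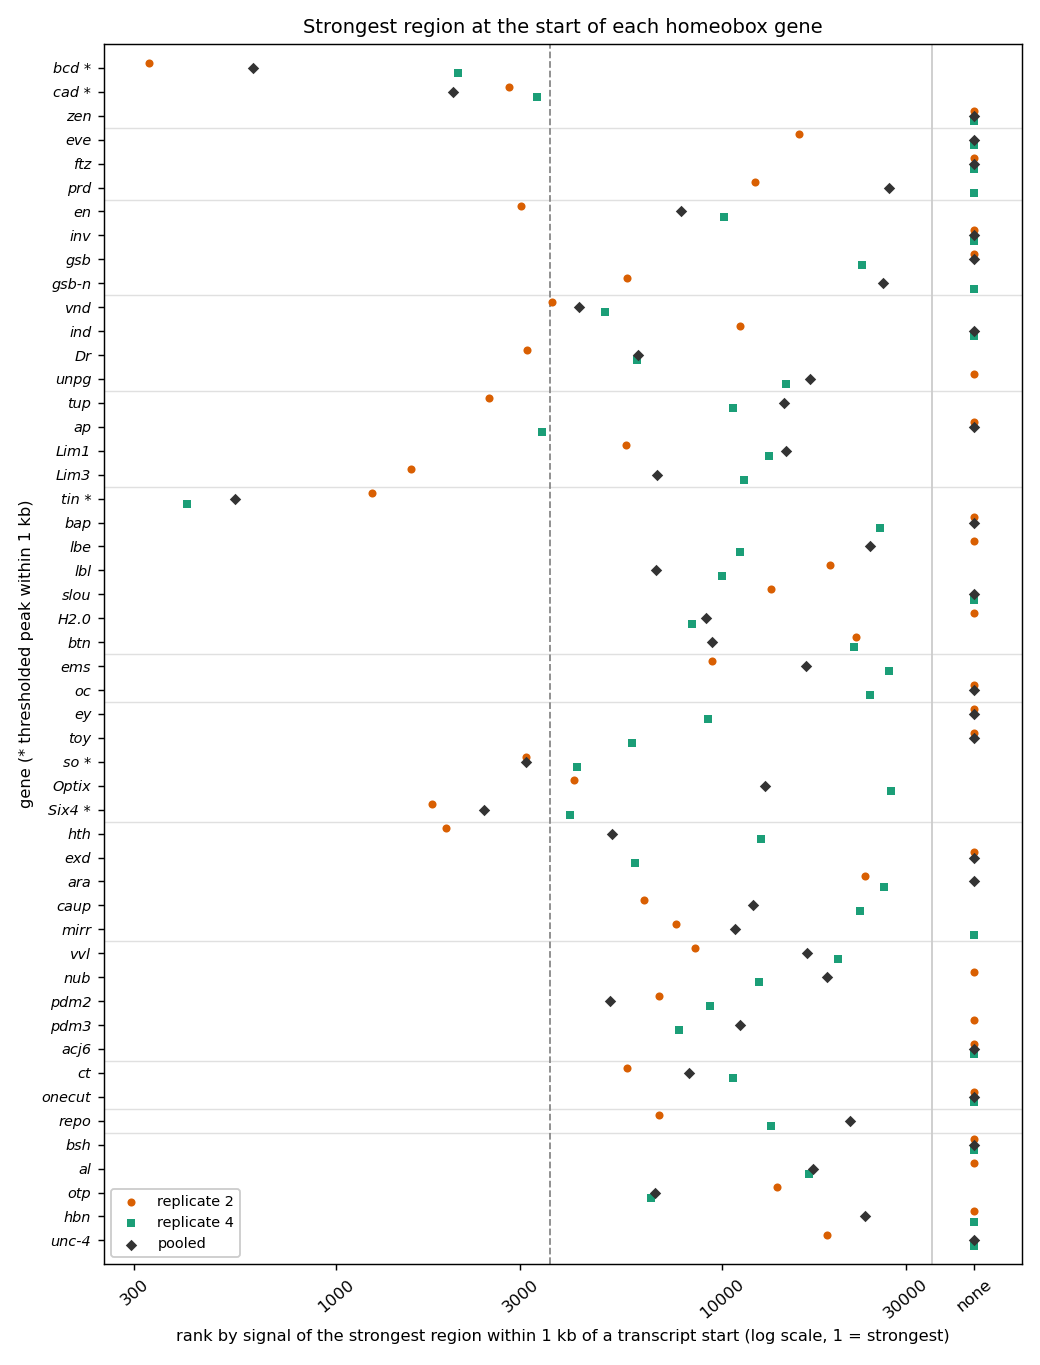
Rank by signal (horizontal, log scale) of the strongest region within 1 kb of a transcript start of each of the 50 homeobox genes (vertical, grouped by role) in the lists of replicate 2, replicate 4 and the pooled reads. The dashed line is rank 3587, "none" means no region in that list, and asterisks mark the 5 genes with a thresholded peak there; the pooled diamonds of all other genes lie to the right of the line.

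Below the threshold, weak candidate regions were common at homeobox starts. The pooled list, which by its name also holds background, had a region within 1 kb of a start in 32 of the 50 (64.0%), against 55.8% of all genes. The best rank had a median of 10110 among those 32 genes and of 7016 among all genes with such a region. In 27 genes the region did not reach the thresholded list. The nearest to it were vnd, which specifies the ventral neural column, at pooled rank 4245, pdm2, a POU gene of neuroblasts, at 5131, and hth, which encodes a cofactor of Hox proteins, at 5182. At the other end stood the pair-rule gene prd at 27078 and gsb-n, a Pax gene of the nerve cord, at 26051. The 18 genes without a pooled region there were zen, eve, ftz, inv, gsb, ind, ap, bap, slou, oc, ey, toy, exd, ara, acj6, onecut, bsh and unc-4. Of these, zen, ftz, inv, acj6, onecut and bsh, and in addition hbn, had none in either replicate list. That lack held for 7 of the 50 homeobox genes and for 4412 of the 13945 protein-coding genes.

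The replicates ordered these starts differently. Of the 23 homeobox genes with a region within 1 kb in both replicate lists, 19 (82.6%) ranked higher in replicate 2, whereas 2877 of 5748 protein-coding genes (50.1%) did. The exceptions were tin, lbl, otp and btn. The 3587 strongest regions of replicate 2 reached 7 starts that those of replicate 4 did not: Lim3 (rank 1559 in replicate 2 and 11374 in replicate 4), Six4 (1769 and 4024), hth (1922 and 12586), tup (2483 and 10692), en (3004 and 10096), so (3110 and 4207) and Dr (3128 and 6034). Lim3 and tup encode LIM factors of motor neuron identity, en the selector of posterior compartments, and Dr a factor of the dorsal neural column. The reverse held only at ap, a LIM gene of neurons and the dorsal wing, which ranked 3416 in replicate 4 and had no region in replicate 2. Over all 13945 protein-coding genes, 699 were reached in replicate 2 only and 749 in replicate 4 only. With 1 library on each side, the difference at homeobox starts was not tested.

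Base composition is given beside it, and its part in the result was not tested. The sequence within 500 bp of the starts had a median GC content of 47.9% in the homeobox genes (range 31.4 to 59.7) and 42.6% in all protein-coding genes. Among the 3587 strongest regions of replicate 2, the 10 at homeobox starts had a median GC content of 54.5% within 50 bp of the summit, against 45.5% for the 2242 at any start. Among the same number of replicate 4, the figures were 53.5% for 4 regions and 37.6% for 2125. Among all genes at or above the homeobox median, 52.2% ranked higher in replicate 2 (346 of 663), close to the 49.8% among genes below it. Among the homeobox genes, 9 of 10 at or above their median and 10 of 13 below it ranked higher in replicate 2.

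The axis genes held peaks beyond their own starts. cad had an intronic peak of rank 527 (chr2L:20780857-20781054; 382 in replicate 2 and 884 in replicate 4), 10061 bp downstream of the nearest cad start, and another of rank 881 beyond its end, 243 bp from the start of Pomp, a proteasome maturation gene. At bcd, peaks of rank 638 and 2312 lay 3409 and 5607 bp upstream of its start. Both summits lay inside Ama, which encodes an immunoglobulin-domain adhesion protein. zen, which specifies the amnioserosa, was reached within 10 kb only by the bcd start peak and the peak of rank 638, and had no region within 1 kb in any list.

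Of the 7 pair-rule and segment polarity genes, 1 had a thresholded peak within 10 kb, against 52.8% of all genes. Among eve, ftz and prd, this was prd, with a peak of rank 2981 located 60 bp from the start of its neighbour CG14947. None of en, inv, gsb and gsb-n had one, and their nearest thresholded peaks lay from 13063 bp (en) to 49833 bp (gsb) outside the gene. Pooled regions were present in or within 10 kb of most of them, 14 at inv, 7 at prd (its thresholded peak among them) and 4 at ftz. With 10 kb on each side, all protein-coding genes held 240 pooled regions per Mb and the 50 homeobox genes 261, or 231 without hth. The counts per gene were not compared with these densities. At en, replicate 2 had the region 22 bp from a start that ranked 3004. eve, whose product patterns alternate segments, had no pooled region within 10 kb. Among the 50 genes, only exd, which encodes a partner of Hox proteins, and onecut shared that lack.

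In the nerve cord genes, vnd and ind had no peak within 10 kb. Dr had summits of rank 2212 and 3583, 1900 bp beyond its end and 7442 bp upstream of its start, both between genes. unpg had 1 peak, of rank 2413, which lay 40 bp from the starts of CG8026 and CG45085. The LIM genes Lim1, Lim3 and tup had peaks and ap had none, its nearest being 295753 bp away. Those of tup, also known as islet, lay outside the gene. The stronger, of rank 699 (1053 in replicate 2 and 620 in replicate 4), was 1746 bp beyond its end and 82 bp from a start of CG10602. The other, of rank 1050 (2462 and 969), lay between genes 9023 bp upstream. Lim3 had a peak of rank 2611 (1908 and 3687) in an exon. Lim1, a gene of head and neural patterning, had intronic peaks of rank 1797 and 1972. Replicate 4 ranked them 1480 and 1540, and replicate 2 ranked them 4564 and 7518.

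Of the 7 mesoderm genes, tin and btn had peaks within 10 kb, where 52.8% of all genes had one. Besides its start peak, tin had 3 upstream peaks of rank 1473, 2992 and 3555, all inside mod(mdg4), which encodes BTB chromatin proteins. The peak of rank 2992 had no region in replicate 2. btn, a gene of the dorsal median cells of the mesoderm, had peaks of rank 228 and 1812 in an intron of its neighbour Efa6, an Arf6 exchange factor gene, 2982 and 4053 bp upstream of the btn start. bap, lbe, lbl, slou and H2.0, genes of gut muscle, body muscle and heart, had none. The bap gene fell just outside the limit, with the nearest summit 10071 bp away. The farthest nearest summit inside the limit was that at mirr, 8758 bp away.

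**Figure D2:**
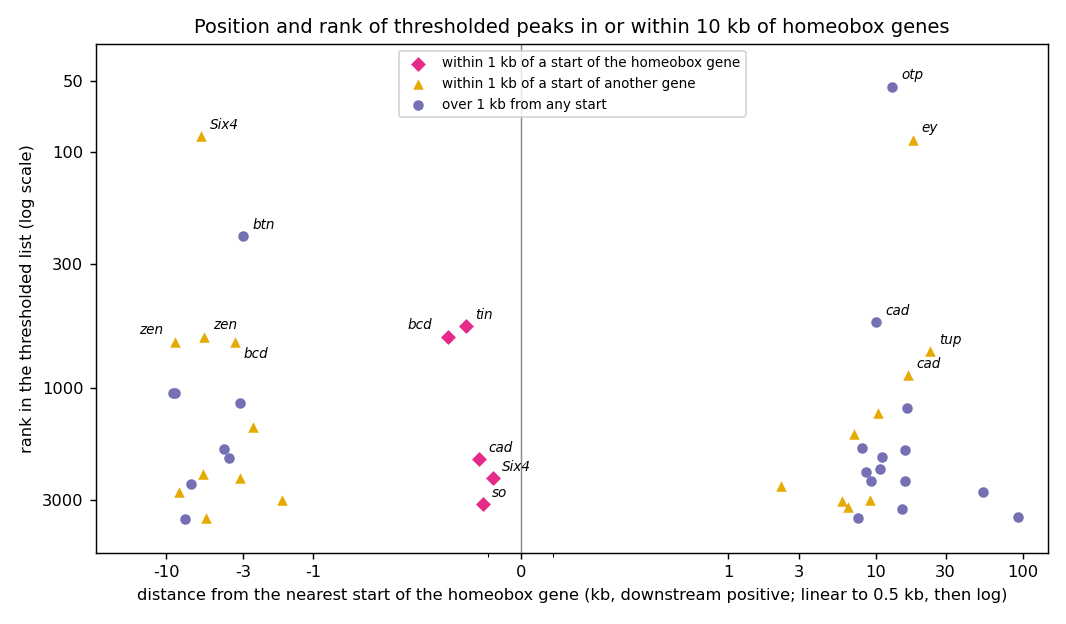
Distance of each thresholded peak from the nearest start of the homeobox gene it lies in or within 10 kb of (horizontal, kb, downstream positive, linear near 0 and then log) against its rank in the thresholded list (vertical, log scale, strongest at the top). The 5 diamonds are the start peaks, all on the upstream side; triangles lie within 1 kb of the start of another gene and circles over 1 kb from any start, and a peak within reach of both bcd and zen is drawn for each.

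Strong peaks near ey and Six4 lay at other genes. Six4 was within 10 kb of the peak of rank 86 (86 in replicate 2 and 99 in replicate 4), whose summit was 5821 bp upstream of Six4 but 47 bp from the start of tzn. ey, the Pax6 selector of the eye, was within reach of the peak of rank 89 (71 and 123), 4112 bp beyond its end and 71 bp from a start of bt, which encodes the muscle protein projectin. On chromosome 4, which has 8 thresholded peaks in all, the other Pax6 gene toy had a peak of rank 2568 upstream, with no region in replicate 2. Another Six4 peak, of rank 1568, ranked 549 in replicate 2 and 3252 in replicate 4, and lay 3647 bp beyond the end of Six4 inside Pcif1. Optix had no peak within 10 kb. The windows around the ey peak and the stronger btn peak are shown, with that of an intronic peak of hth, because they carry an MRE core; strand, source and capitals are as above:
ey (bt intron): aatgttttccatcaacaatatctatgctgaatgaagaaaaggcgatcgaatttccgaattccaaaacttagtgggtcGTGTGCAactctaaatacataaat
btn (Efa6 intron): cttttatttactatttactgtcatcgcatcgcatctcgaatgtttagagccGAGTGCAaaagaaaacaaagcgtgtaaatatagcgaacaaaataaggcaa
hth (own intron): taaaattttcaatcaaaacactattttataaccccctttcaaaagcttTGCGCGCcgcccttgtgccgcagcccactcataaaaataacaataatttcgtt
The window at chr4:725235-725335 has TGCACAC on the minus strand centred 30 bp from the summit. That at chr3R:22589557-22589657 has TGCACTC on the minus strand 4 bp from it, and that at chr3R:10597778-10597878 has TGCGCGC on the plus strand 1 bp from it. The second btn peak and the ara peak also have TGCACAC, each 34 bp from the summit.

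The strongest peak near any of the 50 genes lay inside otp (FBgn0015524), a gene of brain and hindgut. It covered chr2R:20884455-20884740 with a signal of 820, which is 5.34 times the median of the thresholded list. Its ranks were 53 in the thresholded list, 34 in replicate 2 and 89 in replicate 4. The summit fell in the coding part of an otp exon at chr2R:20883625-20884761, a place shared by only 28 of the 3587 summits (0.781%), and no MRE core lay within 100 bp of it. A second otp peak, of rank 2267, was intronic.

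hth, of the TALE class, had the most peaks of the 50 genes. It is also the longest, at 132008 bp. Of its 6 peaks, 5 were inside the gene and 3 of those, of rank 1214, 1835 and 3251, had summits between chr3R:10597828 and chr3R:10599053, 15223 to 16448 bp downstream of the nearest hth start. The remaining 2 inside were of rank 2759 and 3521. The peak of rank 1214 ranked 1078 in replicate 2 and 977 in replicate 4, whereas that of rank 2759 ranked 18275 and 2574. The Iroquois genes ara, caup and mirr, which pattern the dorsal eye, notum and nerve cord, had 1 upstream peak each. That of mirr ranked 1054 (955 in replicate 2 and 1105 in replicate 4) and lay 8758 bp upstream. That of caup ranked 1155 (1589 and 1265) and lay 3139 bp upstream. Both lay between genes, while that of ara (rank 2765) was 23 bp from the start of sowah.

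None of the 5 POU genes, vvl, nub, pdm2, pdm3 and acj6, had a peak within 10 kb, against 52.8% of all genes. A pooled region within 1 kb of a start was present in 4 of the 5, against 55.8% of all genes. acj6, which selects the identity of olfactory neurons, had no region within 1 kb in any list. ct, a CUT gene of sense organs, had 1 intronic peak of rank 2493. The glial selector repo had 3 peaks beyond its end, of rank 3008, 3184 and 3572, the first inside CG7156 and the others inside 14-3-3epsilon. bsh, a brain gene, had a peak of rank 1275 (3463 in replicate 2 and 1128 in replicate 4) located 71 bp from the start of CG10628, and oc, a head gap gene, had 1 of rank 2484 beyond its end. al, hbn, unc-4 and ems had none, which with exd and onecut brings the genes without a peak within 10 kb to 26.

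By position, the peaks near homeobox genes often lay at the start of a neighbour. The 24 genes shared 44 distinct peaks, of which 5 lay at their own starts, 17 lay within 1 kb of a start of another gene, and 22 (50%) lay over 1 kb from any start. Of all thresholded peaks, 38.1% lay that far out. The median distance to the nearest start of any gene was 1031 bp, against 480 bp for all peaks. For 20 of the 44 the nearest protein-coding start was that of a homeobox gene. When a peak was counted only for the nearest gene, 15 of the 50 had a peak, a share above the 16.8% of all genes; this count was not split by gene length.

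Ranks of these peaks spanned the list. Their median rank was 1992.5, against 1794 over all thresholded peaks. Where a replicate list held them, these peaks had a median rank of 2046 in replicate 2 (all peaks 1881) and 2092.5 in replicate 4 (all peaks 1782). The strongest regions of each replicate near these genes had medians with an SD of 155 between replicates. That SD does not measure the spread of a median over 44 peaks. Fewer of them than of all peaks were in the first 1793 ranks, 17 of the 44 (38.6%), but 3 were in the first 100. In replicate 2, 32 of them were among the 3587 strongest regions (72.7%, all peaks 70.7%), and in replicate 4, 33 were (75%, all peaks 83.5%). In both at once there were 22 (50%, all peaks 59.0%). The peaks of rank 53, 86, 89 and 228 ranked between 34 and 271 in each replicate. Weaker ones scattered more, such as the third repo peak, at 2744 in replicate 2 and 12245 in replicate 4.

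**Figure D3:**
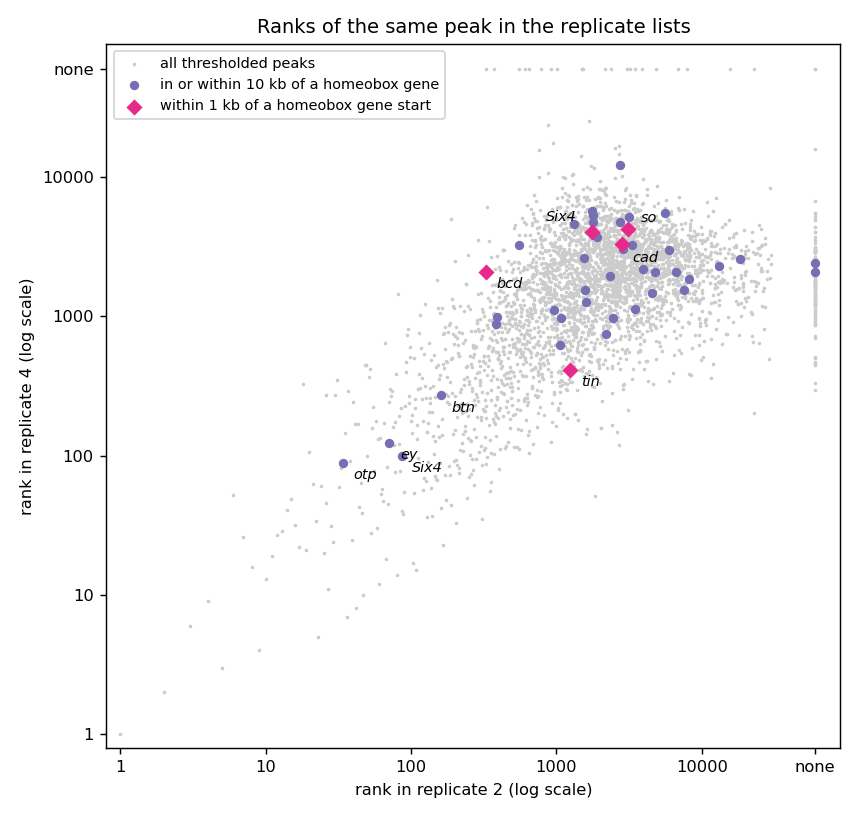
Rank of each thresholded peak in the list of replicate 2 (horizontal, log scale) and of replicate 4 (vertical, log scale), taking the strongest overlapping region; "none" means no overlapping region. The peaks near otp, ey, Six4 and btn sit at the strong end in both, the start peaks of bcd and tin lie on opposite sides of the diagonal, and the other homeobox peaks lie in the cloud of grey points for all peaks.

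For thresholded peaks at starts, the share of homeobox genes lay farthest below that of other genes among the longest. The homeobox genes are long, with a median of 9734 bp against 2166 bp for all protein-coding genes, and long genes more often had a peak. None of the 14 homeobox genes over 20 kb had a peak within 1 kb of a start, against 33.5% of the 1013 genes of that length. This count depends on the list: the 3587 strongest regions of replicate 2 reached 3 of the 14, Lim3, hth and tup, and those of replicate 4 reached 1, ap. The share of all genes of that length in these replicate lists was not computed, so these counts have no matched background. Between 5 and 20 kb the count was 2 of 17 (11.8%) against 28.7%, and under 5 kb it was 3 of 19 (15.8%) against 12.6%. A pooled region within 1 kb was less rare, in 9 of the 14 long genes (64.3%) against 80.9%. By number of starts, the counts were 3 of 31 homeobox genes with 1 start (9.68%) against 11.9%, 2 of 10 with 2 starts against 25.4%, and 0 of 9 with 3 or more against 43.8%. The last became 1 of 9 in each replicate's strongest regions, Lim3 in replicate 2 and ap in replicate 4, again without a matched share of all genes.

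**Figure D4:**
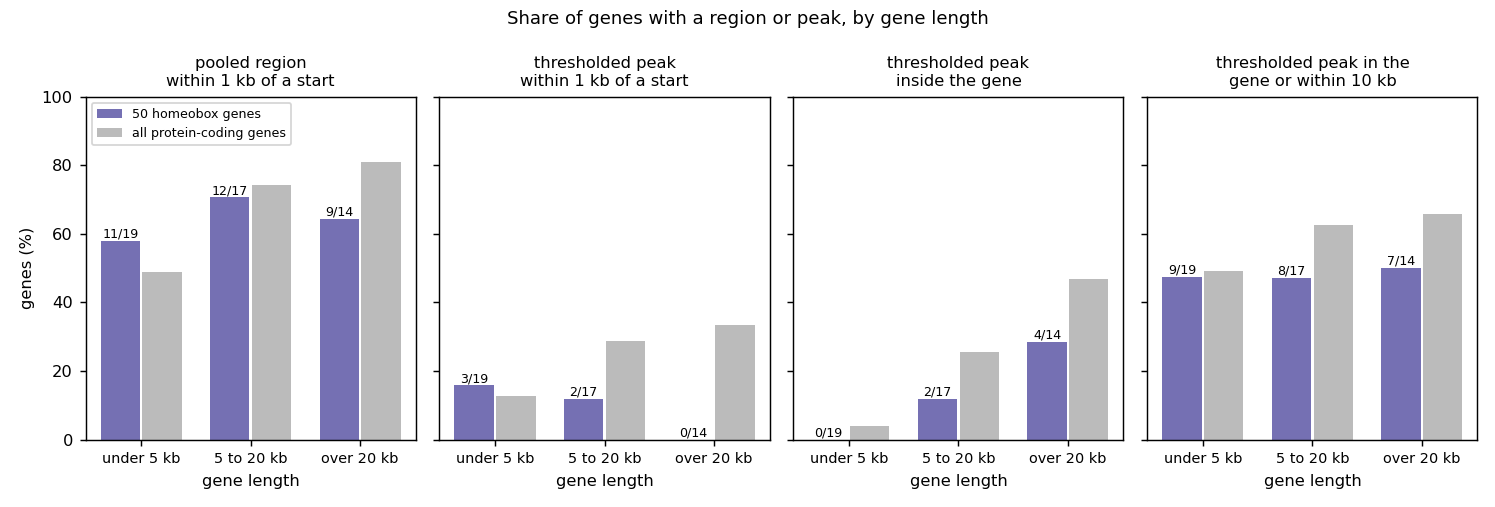
Share of genes (vertical, percent) with a pooled region within 1 kb of a start, a thresholded peak within 1 kb of a start, inside the gene, or in the gene or within 10 kb, by gene length (horizontal). Purple bars are the 50 homeobox genes with their counts and grey bars all protein-coding genes; for thresholded peaks the purple bars of the long classes stand below the grey ones.

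Per length of sequence, the insides of homeobox genes held fewer thresholded peaks than those of all genes. They held 12 peaks in 0.858 Mb, or 14.0 per Mb, against 26 per Mb inside all protein-coding genes. Most of that sequence, 0.595 Mb, belongs to the genes over 20 kb, in which the gap was smaller, 15.1 against 21.7 per Mb. In that class, hth supplied 5 of the 9 peaks. Between 5 and 20 kb the density was 14.4 against 38.5, and under 5 kb there was no peak in 0.0561 Mb, against 22 per Mb. Pooled regions had a density of 268 per Mb inside the 50 genes, against 227. By length, this excess was seen only in the genes over 20 kb (306 against 218), the class that holds hth. The density was lower than in all genes between 5 and 20 kb (188 against 274) and under 5 kb (161 against 195). Without hth, which supplied 5 of the 12 peaks, the pooled regions inside the genes fell from 230 to 153. The figures for all lengths were then 9.64 thresholded peaks and 211 pooled regions per Mb, so the pooled excess over the 227 of all genes was absent. The figures for genes over 20 kb were not recomputed without hth, so the smaller gap in that class is not shown to hold without it. The 3587 strongest regions of single replicates gave 11.6 per Mb (replicate 2) and 15.1 per Mb (replicate 4) inside the 50 genes, against 27.9 and 25.3 inside all genes. With 10 kb on each side added, the thresholded density was 24.6 per Mb against 29.4.

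Counts of motifs at the summits were small, from 0 to 7 of the 44 peaks. An MRE core lay within 50 bp of the summit in 6 of the 44 peaks (13.6%), against 11.4% of all thresholded peaks. Those were the peaks at ey, btn (both), bcd, hth and ara. The forms went opposite ways, TGCACNC being present in 5 (11.4%) against 6.41% and TGCGCNC in 1 (2.27%) against 5.35%. GAGAG, the core of GAGA factor sites, was present in 7 (15.9%) against 15.8%, and GGTCACAC, the M1BP site, in 2 (4.55%) against 1.37%, both at neighbours of repo. TAATTA, a core that many homeodomains bind, was present in 1 (2.27%) against 5.6%, and TATCGATA, the DRE, in none against 1.56%. These are counts of letters in a window and do not show which factor is bound.

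Other lists of developmental regulators gave start counts from none to 4 genes. Of 37 further homeobox genes, 4 (10.8%) had a thresholded peak within 1 kb, namely Dll, NK7.1, PHDP and ro, and 13 (35.1%) had one in the gene or within 10 kb. Of the 8 Hox genes, 0 and 5 (62.5%) did. Of 20 early patterning genes without a homeobox, 4 (20%; ci, hb, hry and ptc) and 9 (45.0%) did, and of 15 proneural and neural bHLH genes 0 and 6 (40%). Among all protein-coding genes, 17.0% had a thresholded peak within 1 kb and 52.8% had one in the gene or within 10 kb. The median gene length was 30563 bp for the Hox genes and 7572 bp for the further homeobox genes. It was 4139.5 bp for the early patterning genes and 1944 bp for the bHLH genes. In the gene or within 10 kb, the share of all genes was 49.2% under 5 kb and 65.8% over 20 kb. Differences between these lists were not tested, and the lists were not matched for gene length.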

How the data were processed

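The data are 4 deposited narrowPeak lists, on dm6 per the labels. Per the deposited read-me, the authors made a list for each replicate and one from both alignments, each with a further shared file whose content is not stated, and derived the list thresholded by irreproducible discovery rate from these 3. Aligner, peak caller, threshold and depth were not given in the sources used here. Column 7 (signal) and column 9 (−log10 of a q-value) are the authors' values per region, as deposited. The q-values were not used, and the signal served for ranks within a list. Summits are the region start plus column 10.

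Gene models came from Ensembl release 115 (BDGP6.54, the dm6 assembly) without transposon insertions. Sequence came from RefSeq Release 6, and 0 regions lay beyond a chromosome end on these arms. A peak was matched between lists by an overlap of at least 1 bp, taking the strongest region. Counting was tested on simulated summits. Python 3.11.15, numpy 2.4.6, pandas 2.3.3 and matplotlib 3.10.9 were used. The members, their roles and the comparison lists were chosen with earlier results of these data known, so no list was tested, and no p-value is given. Where nothing says that the embryos came from separate crosses, the spread between the 2 replicates may be technical. Every gene with a start peak was named. Of the genes with other peaks within 10 kb, the 10 with the strongest were to be given in full and the rest by rank. All genes without a peak within 10 kb, or without a pooled region within 1 kb of a start, were named.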

Additional observations from a re-analysis of the deposited data

How the results depend on the processing

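Counts were repeated under other settings, given here with the main value first; a count was taken as moved when it differed by over 1.5 times. Genes with a start peak numbered 5. In the 1793 strongest thresholded peaks there were 2 (all genes 9.54%), within 5000 bp 10 (33.3%), and with any pooled region 32 (55.8%). The 2 replicates, each used without the other, gave 4 to 10. Within 500 bp the count stayed at 5 (14.3%), as it did by nearest start only (12.5%). Genes with a peak in the gene or within 10 kb numbered 24. There were 13 in the stronger list (35.7%), 6 in the gene alone (10.9%) and 15 by nearest gene (16.8%), and single replicates gave 21 to 22. Distinct peaks numbered 44, with 17 in the stronger list and 12 in the gene alone, and single replicates gave 41 to 42. Their median rank of 1992.5 (all peaks 1794) became 699 in the stronger list (all peaks there 897), so that the direction turned, and was 1852.5 to 2071 in single replicates (all regions 1794). Peaks with an MRE core numbered 6, and 4 to 8 under the alternatives. Leaving out hth was chosen after the data were seen. No paired analysis was possible because the series has 1 group. Read depth is unknown, so a missing region does not show that MTF-1 was absent.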
